A study of Mus musculus with 8 samples.

Results

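The genes described here are 32 genes of the Sonic hedgehog (Shh) pathway and of the dorsoventral progenitor domains of the neural tube, chosen by name from the 32567 genes of the RNA-seq table. They comprise 10 pathway genes, 7 ventral, 6 intermediate and 9 dorsal transcription factors, and all 32 were present in the table. They were compared in 4 mouse mRNA libraries, 1 for each condition: embryonic stem cells (ESC) and cells differentiated from them as embryoid bodies (EB) with retinoic acid (RA-DIFF), each of a wild-type and of a huntingtin-null line, the latter a line that carries Hdh ex4/5 on both alleles (Htt-null). Both genotypes were kept in leukemia inhibitory factor as ESC, were taken off feeder cells for 4 passages, were grown as EBs for 8 days with 5 µM retinoic acid from day 4, and were collected 2 hours after plating. Each condition was a single library of a single line, so the Htt genotype cannot be told apart from the line or the culture, no difference has a replicate check, and no p-value is given.

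In the embryo, Shh is secreted by the notochord and the floor plate and spreads dorsally through the ventral neural tube. It binds its receptor Ptch1, which releases the transducer Smo and turns the Gli factors towards activation. High signal induces ventral progenitor factors and removes others, and pairs of factors repress each other, so that progenitors settle into stripes that are read by their transcription factors. From ventral to dorsal these include Foxa2 in the floor plate, Nkx2-2 in p3, Olig2 in the motor neuron domain, Dbx1 near the midpoint, and Pax3, Pax7, Msx and Lmx1a in the dorsal neural tube and roof plate. Retinoic acid from the neighbouring mesoderm is known for promoting spinal and hindbrain neural fates, and it is used in culture to obtain neural cells of this kind from ESC.

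The libraries held between 63617410 and 110569127 counts. Levels are given as CPM, the reads of a gene scaled to library size after TMM, a correction for library composition, and where no read was counted the level may be as high as 3 counts (0.0268 to 0.0460 CPM, by library). A gene was called higher or lower when its log2 ratio was beyond 0.75 in a pair of libraries and its mean log2 CPM over the 4 libraries was above 0, a limit passed by 15492 genes. Among the 32 genes, 30 passed it, and the dorsal factors Gsx2 and Olig3 did not. The intervals given are 95% intervals of counting error and hold no error between cultures.

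The labels of the RA-DIFF libraries need care. Reads on Htt (ENSMUSG00000029104, chromosome 5 of GRCm38, 34761740 to 34912534) were 166 CPM in wild-type and 111 CPM in Htt-null ESC, but 73.3 CPM in the wild-type-labelled RA-DIFF library and 98.7 CPM in the Htt-null-labelled one. Htt thus ran against the label after differentiation. These counts cover the whole gene and not the targeted exons alone, so they are no direct check of the allele. The levels that the study published for each condition lie nearest to the deposited column of the same label in ESC, and nearest to the column of the opposite label in RA-DIFF. Both are therefore named throughout by the label they were deposited with. If those labels are exchanged, each RA-DIFF ratio between genotypes keeps its size and takes the opposite sign.

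In RA-DIFF the progenitor factors were divided by their dorsoventral position. Ventral factors were mostly higher in the Htt-null-labelled library, with 6 of 7 called higher and 1 lower and a median log2 ratio of 1.65. The intermediate factors were mostly lower there, with 4 of 6 called lower, 1 higher and a median of -1.75, and so were the dorsal factors, with 5 of the 7 that passed the limit called lower, none higher and a median of -1.93. Summed over their members, the ventral factors reached 269 CPM in the Htt-null-labelled library and 74.9 CPM in the wild-type-labelled one. For the intermediate factors the sums were 104 and 297 CPM, and for the dorsal factors 29.6 and 108 CPM. Over all 30 genes, 10 were called higher (33.3%) and 11 lower (36.7%), against 11.7% and 8.99% of all genes tested. The median over the 30 genes was -0.24, over all 32 it was -0.30, and over all genes tested -0.01.

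**Figure D1:**
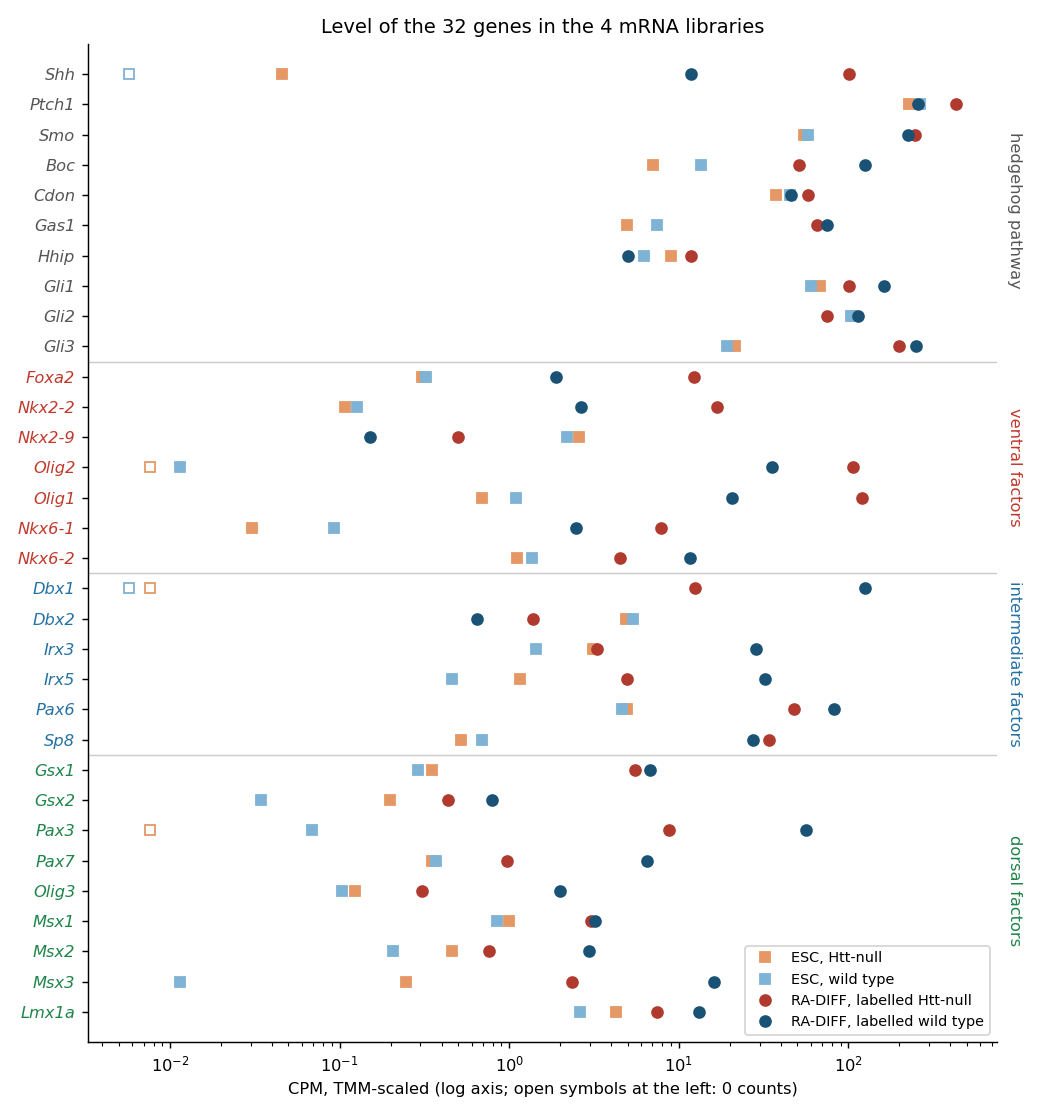
Level of each of the 32 genes (rows, from the pathway to the dorsal factors) in the 4 mRNA libraries, as TMM-scaled CPM on a log axis, with squares for ESC, circles for RA-DIFF and open symbols for 0 counts. Among the ventral factors the Htt-null-labelled RA-DIFF library lies to the right in 6 of 7 rows, and for Dbx1, Irx3, Irx5, Pax3, Pax7 and Msx3 the wild-type-labelled library lies to the right.

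Shh (ENSMUSG00000002633, chromosome 5, 28456815 to 28467256), the ligand, was practically absent from ESC, with 0 counts in wild type and 3 in Htt-null. It reached 11.8 CPM in the wild-type-labelled RA-DIFF library (1326 counts) and 101 CPM in the Htt-null-labelled one (9960 counts). The log2 ratio between these was 3.09 (3.01 to 3.18), an 8.53-fold difference and the largest of the 32 genes in favour of the Htt-null-labelled library. Antisense genes that overlap Shh held few reads, at most 134 in any library. Among the pathway genes Shh also moved furthest in rank: by CPM per kb of exon, a scale that allows genes to be compared, it was 4th of the 32 genes in the Htt-null-labelled library (35.5 CPM per kb) and 19th in the wild-type-labelled one (4.16 CPM per kb).

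Ptch1, the receptor and a well-known target of the pathway, was strongly expressed throughout, with 264 CPM in wild-type ESC, 226 in Htt-null ESC, 256 in the wild-type-labelled RA-DIFF library and 432 in the Htt-null-labelled one. Its RA-DIFF log2 ratio of 0.75 (0.73 to 0.77) lay at the fold limit, and with library size in place of TMM it was 0.70 and Ptch1 was not called. Hhip, a membrane protein that binds and sequesters the ligand and is also induced by the pathway, had 6.24, 8.95, 5.05 and 11.8 CPM in the same order, with a RA-DIFF log2 ratio of 1.22 (1.08 to 1.37). Ptch1 and Hhip were thus both higher in the library with more Shh. Gli1, the factor most often used as a readout of pathway activity, was not: it had 60.0 CPM in wild-type and 67.7 CPM in Htt-null ESC, 161 CPM in the wild-type-labelled RA-DIFF library and 100 CPM in the Htt-null-labelled one. The log2 ratio of Gli1 in RA-DIFF was -0.68 (-0.72 to -0.65), within the fold limit. The number of Ptch1 reads for each Gli1 read, which no scaling of libraries can alter, was 4.41 in wild-type ESC, 3.34 in Htt-null ESC, 1.59 in the wild-type-labelled RA-DIFF library and 4.30 in the Htt-null-labelled one.

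The other Gli factors differed less. Gli2, the main activator of the pathway, had between 74.9 and 114 CPM in the 4 libraries and a RA-DIFF log2 ratio of -0.61. Gli3, which acts mainly as a repressor where Shh is low, was at 19.2 and 21.5 CPM in wild-type and Htt-null ESC and at 249 and 200 CPM in the RA-DIFF libraries labelled wild type and Htt-null. Its RA-DIFF ratio was -0.31. All 3 Gli genes were therefore lower in the library with more Shh, none of them beyond the fold limit. Smo, the transducer, was nearly equal in RA-DIFF, with 225 CPM in the wild-type-labelled library and 246 CPM in the Htt-null-labelled one.

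The co-receptors Boc, Cdon and Gas1 help cells bind Shh and are known to be repressed where the signal is high. Boc was the only pathway gene called lower in the Htt-null-labelled RA-DIFF library, with 126 CPM in the wild-type-labelled library and 51.3 CPM there, a log2 ratio of -1.30 (-1.34 to -1.25). It was also lower in Htt-null than in wild-type ESC, with 7.07 against 13.6 CPM. Gas1 was close in both RA-DIFF libraries (75.1 CPM labelled wild type, 65.3 CPM labelled Htt-null), and Cdon was slightly higher in the Htt-null-labelled one (45.9 and 58.1 CPM). Over the 10 pathway genes the median log2 ratio in RA-DIFF was -0.03, with 3 called higher and 1 lower, beside 11.7% and 8.99% of all genes tested.

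Other genes of the pathway were taken from a list of 29 that holds none of the 32. Of the 27 that passed the expression limit, 3 were called higher in the Htt-null-labelled RA-DIFF library (11.1%) and 1 lower (3.70%), beside 11.7% and 8.99% of all genes tested, with a median of 0.02. The 4 most abundant, Csnk1a1, Cul3, Gsk3b and Prkaca, are kinases and an ubiquitin ligase subunit that act on the Gli proteins, and their log2 ratios lay between -0.21 and 0.18. The 4 called genes were chosen for naming after their values were seen. They are Lrp2, an endocytic receptor that takes up Shh, with a log2 ratio of 2.47, Gpc3 with 0.75, Hhat, which attaches palmitate to the ligand, with 0.75, and Scube2, which aids its release, with -2.05. With library size in place of TMM, Gpc3 and Hhat were both at 0.70 and were not called, which left 1 gene higher. In ESC none of the 27 was called. In a list of 14 hedgehog targets of other tissues, 4 of the 10 that passed the limit were called higher and 1 lower, and among the most abundant were Ccnd2 (0.54), Ccnd1 (0.22) and Mycn (-1.01).

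**Figure D2:**
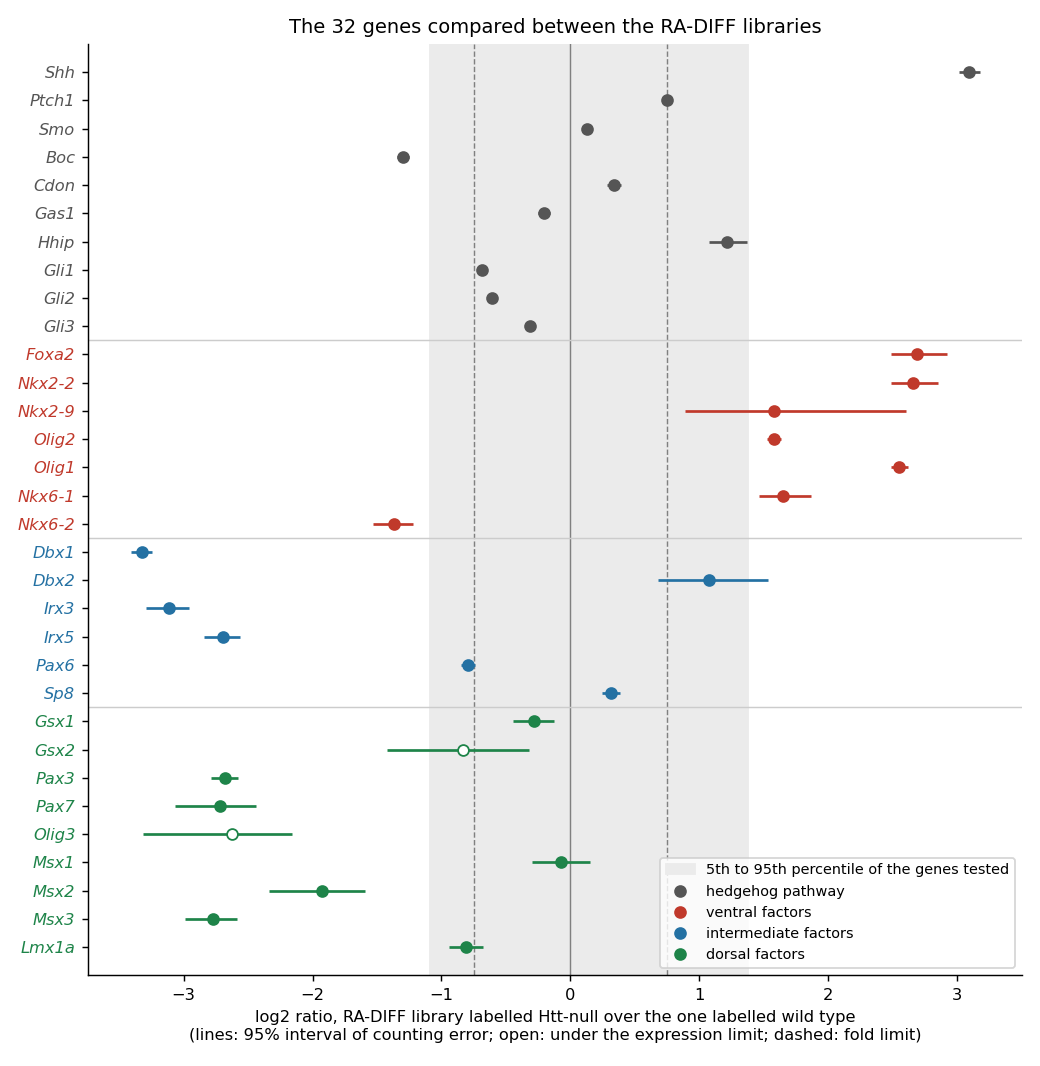
Log2 ratio of the Htt-null-labelled RA-DIFF library over the wild-type-labelled one for the 32 genes, with 95% intervals of counting error, dashed lines at 0.75 in either direction and, in grey, the range from the 5th to the 95th percentile of the genes tested (-1.09 to 1.38). Ventral factors lie to the right except Nkx6-2, and the intermediate and dorsal factors lie to the left except Dbx2 and Sp8.

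The ventral factors were followed from the floor plate outwards. Foxa2, the forkhead factor of the floor plate and also of notochord and endoderm, had 0.323 and 0.307 CPM in wild-type and Htt-null ESC, and 1.88 and 12.3 CPM in the RA-DIFF libraries labelled wild type and Htt-null. Its RA-DIFF log2 ratio was 2.69 (2.49 to 2.92). Nkx2-2, the homeodomain factor that marks p3, had 0.127 and 0.107 CPM in ESC and 2.64 and 16.8 CPM in RA-DIFF in the same order, with a ratio of 2.66 (2.49 to 2.85). Both were thus more than 6-fold higher in the Htt-null-labelled library, at modest levels. Nkx2-9, the close relative of Nkx2-2, stood apart because it was higher in ESC, with 2.19 and 2.58 CPM, than in RA-DIFF, with 0.152 and 0.498 CPM (17 and 49 counts). Its ratio in RA-DIFF, 1.58 (0.89 to 2.60), has the widest interval of the ventral factors.

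Olig2, the bHLH factor of motor neuron progenitors, was all but undetected in ESC, with 1 count in wild type and 0 in Htt-null, and reached 35.5 CPM in the wild-type-labelled RA-DIFF library and 106 CPM in the Htt-null-labelled one (3981 and 10451 counts). Olig1, its neighbour on chromosome 16 and a factor of the oligodendrocyte lineage as well, had 1.10 and 0.690 CPM in ESC and 20.6 and 121 CPM in RA-DIFF. The log2 ratios in RA-DIFF were 1.58 (1.53 to 1.63) for Olig2 and 2.55 (2.49 to 2.62) for Olig1. Per kb of exon, Olig1 was the first of the 32 genes in the Htt-null-labelled library and the 12th in the wild-type-labelled one. Olig2 was 3rd and 9th.

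Nkx6-1 and Nkx6-2 are paralogues that went in opposite directions. Nkx6-1, which spans the ventral domains up to p2, had 8 counts in wild-type and 2 in Htt-null ESC and reached 2.48 CPM in the wild-type-labelled RA-DIFF library and 7.85 CPM in the Htt-null-labelled one, a log2 ratio of 1.65 (1.46 to 1.86). Nkx6-2, which in the mouse lies mainly in the narrow domains dorsal to p2, next to Dbx1, had 11.7 and 4.51 CPM in the same libraries, a ratio of -1.37 (-1.53 to -1.22). It was the only one of the 7 ventral factors that was lower in the Htt-null-labelled library. Nkx6-2 overlaps Inpp5a on the opposite strand, and the methods name no strand option for the counting, so whether reads of that gene enter its count was not tested. Inpp5a itself had 4618 and 4489 reads in these libraries.

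Dbx1, the homeodomain factor that defines p0 and its dorsal neighbour, showed the largest difference of the 32 genes in favour of the wild-type-labelled RA-DIFF library. Exchanging the labels would make Dbx1 the largest increase and Shh the largest decrease in Htt-null. It had 0 counts in both ESC libraries, 125 CPM in the wild-type-labelled RA-DIFF library and 12.5 CPM in the Htt-null-labelled one (14027 and 1228 counts). The log2 ratio was -3.33 (-3.41 to -3.24). Per kb of exon, Dbx1 was the first of the 32 genes in the wild-type-labelled library (59.9 CPM per kb) and the 13th in the Htt-null-labelled one (5.96 CPM per kb). Its paralogue Dbx2 was low in RA-DIFF, with 0.643 and 1.38 CPM, and higher in ESC, with 5.37 and 4.91 CPM. Dbx2 was the only intermediate factor called higher in the Htt-null-labelled library (1.08, interval 0.68 to 1.54).

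Olig2 and Dbx1 are abundant factors of separate domains that differed in opposite directions, and the 250 bases before their starts are shown for that reason, from RefSeq on GRCm38.p6. Capitals mark GC boxes (GGGCGG on either strand) and the TATA box (TATAAA on either strand). Of Olig2 the region is chr16:91225300-91225549 on the plus strand, and of Dbx1 it is chr7:49636836-49637085 on the minus strand.
Olig2: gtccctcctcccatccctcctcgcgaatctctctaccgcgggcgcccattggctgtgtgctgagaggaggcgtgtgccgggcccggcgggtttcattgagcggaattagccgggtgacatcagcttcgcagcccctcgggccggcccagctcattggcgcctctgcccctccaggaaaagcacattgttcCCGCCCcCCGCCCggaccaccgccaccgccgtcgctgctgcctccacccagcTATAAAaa
Dbx1: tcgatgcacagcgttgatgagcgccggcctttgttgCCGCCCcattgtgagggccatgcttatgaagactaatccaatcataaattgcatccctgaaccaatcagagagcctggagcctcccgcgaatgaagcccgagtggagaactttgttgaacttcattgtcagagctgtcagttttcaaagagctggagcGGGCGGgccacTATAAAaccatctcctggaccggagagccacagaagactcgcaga

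Both regions held 1 TATA box and 2 GC boxes. The table of start regions matched 26 of the 32 genes, with 31 regions, and not Boc, Gli1, Irx5, Olig1, Pax3 or Shh. A TATA box stood in 7 of the 31 regions (22.6%), those of Dbx1, Foxa2, Gsx2, Msx3, Olig2, Olig3 and Sp8, against 12.4% of 32851 regions in all, and a GC box in 18 (58.1%) against 32.7%. The consensus bound by Gli factors, GACCACCCA on either strand, was in none of the 31 and in 0.225% of all regions, and allowing 1 mismatch it was in 2, those of Foxa2 and Lmx1a (6.45%), against 5.79%. The homeodomain core TAATTA was in 2 (6.45%), those of Msx2 and Sp8, against 4.84%.

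Irx3 and Irx5, Iroquois factors of the progenitors dorsal to the Olig2 domain, were both lower in the Htt-null-labelled RA-DIFF library. Irx3 had 1.44 and 3.11 CPM in wild-type and Htt-null ESC, 28.5 CPM in the wild-type-labelled RA-DIFF library and 3.28 CPM in the Htt-null-labelled one. Irx5 had 0.461 and 1.16 CPM in ESC and 32.2 and 4.95 CPM in RA-DIFF. The RA-DIFF log2 ratios were -3.11 (-3.29 to -2.96) and -2.70 (-2.84 to -2.57). From ESC to RA-DIFF in cells labelled Htt-null the 2 genes differed, with Irx3 not called (0.08) and Irx5 called higher (2.065). Irx3os, antisense to Irx3, had 407 reads in the wild-type-labelled library and 37 in the Htt-null-labelled one, next to 3198 and 323 for Irx3. Pax6, the paired factor of a broad intermediate zone, had 82.8 and 47.7 CPM in RA-DIFF, and its ratio of -0.79 (-0.84 to -0.74) just passed the fold limit. Sp8, a zinc finger factor of neural progenitors, differed little, with 27.3 and 34.0 CPM.

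Among the dorsal factors, Pax3 and Pax7 are paired factors of the dorsal neural tube that are also expressed in neural crest and dermomyotome. Pax3 had 6 counts in wild-type and 0 in Htt-null ESC, 56.3 CPM in the wild-type-labelled RA-DIFF library and 8.75 CPM in the Htt-null-labelled one. Pax7 had 0.369 and 0.353 CPM in ESC and 6.47 and 0.965 CPM in RA-DIFF. The log2 ratios were -2.68 (-2.79 to -2.58) and -2.72 (-3.07 to -2.44). Olig3, the bHLH factor of the most dorsal domains, was under the expression limit but went the same way, with 224 counts in the wild-type-labelled library and 30 in the Htt-null-labelled one.

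The Msx genes, homeobox factors of the dorsal midline, were not alike. Msx3, which is restricted to the dorsal neural tube, had 1 count in wild-type and 16 in Htt-null ESC, and 16.2 CPM in the wild-type-labelled RA-DIFF library against 2.35 CPM in the Htt-null-labelled one, a log2 ratio of -2.77 (-2.99 to -2.59). Msx2 had 2.96 and 0.762 CPM in RA-DIFF, a ratio of -1.93 (-2.34 to -1.59). Msx1 had 3.21 and 3.06 CPM, a ratio of -0.07 (-0.30 to 0.15), an interval that includes 0. Msx1 and Msx2 are also expressed in mesenchyme and neural crest.

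Lmx1a, the LIM homeodomain factor of the roof plate, had 13.1 CPM in the wild-type-labelled RA-DIFF library and 7.46 CPM in the Htt-null-labelled one, a ratio of -0.81 (-0.94 to -0.68). Gsx1 and Gsx2, homeobox factors of dorsal interneuron progenitors, were expressed at low levels: Gsx1 had 6.74 and 5.52 CPM, within the fold limit, and Gsx2 had 89 and 43 counts, under the expression limit. None of the 9 dorsal factors was higher in the Htt-null-labelled library, and Msx1 and Gsx1 did not pass the fold limit.

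Ratios between members within a library do not depend on how libraries are scaled. For each Pax3 read there were 0.632 Olig2 reads in the wild-type-labelled RA-DIFF library and 12.1 in the Htt-null-labelled one. Olig2 to Irx3 was 1.24 and 32.4, Foxa2 to Pax7 was 0.291 and 12.7, and Shh to Dbx1 was 0.0945 and 8.11. Each of these pairs sets a gene higher in the Htt-null-labelled library over one lower there, so they restate the ratios above. Pathway pairs differed less, with Gli1 to Gli3 at 0.648 and 0.502 and Ptch1 to Smo at 1.14 and 1.76. Pairs within the ventral factors also moved. The number of Nkx6-1 reads for each Nkx6-2 read was 0.212 and 1.74, an 8.21-fold difference. The number of Olig2 reads for each Nkx2-2 read was 13.4 in the wild-type-labelled library and 6.33 in the Htt-null-labelled one, so that the more ventral factor of this pair took a larger part in the latter.

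Cells of other types could hold some of these transcripts, and in bulk RNA fewer cells of a type and less RNA per cell cannot be told apart. A floor plate and notochord list had 9 genes that passed the limit. Of these, 7 were called higher (77.8%) in the Htt-null-labelled RA-DIFF library and none lower. Of all genes tested, 11.7% were called higher and 8.99% lower, and the median of this list was 2.47. Among its most abundant genes were Ntn1 (102 CPM labelled wild type, 562 CPM labelled Htt-null), Spon1 (83.5 and 472 CPM) and Foxa1 (10.9 and 60.8 CPM), which encode secreted cues and a transcription factor of the floor plate. T, a factor of the notochord and of early mesoderm, had 68 and 1172 reads, while Noto, which is restricted to the notochord, had 0 and 3. The log2 ratio of T, 4.24, was the largest of the list, and Chrd (0.20) and Nog (-0.13), which encode BMP antagonists, were not called. Genes of this list other than Ntn1, Spon1 and Foxa1, and Sox17, Uncx, Sox10 and Klf4 in those that follow, were named after their values were seen. Reads on endoderm genes were few apart from Foxa1, with 10 genes that together held 21.3 and 70.0 CPM, 10.9 and 60.8 of them from Foxa1, and Sox17 with 66 and 82 reads.

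The roof plate and dorsal midline list did not move as a whole. Of its 13 genes over the limit, the Htt-null-labelled RA-DIFF library had 2 called higher (15.4%) and 4 lower (30.8%), with a median of -0.35. Of all genes tested, 11.7% were called higher and 8.99% lower. With library size in place of TMM, 5 of the 13 were called lower in the Htt-null-labelled library. The Wnt agonists Rspo1 (-2.24), Rspo2 (-2.92) and Rspo3 (-1.37) and the ligand Gdf7 (-1.60) were lower there, and the ligands Bmp6 (3.34) and Bmp7 (2.20) were higher. Wnt3a was also higher in reads (236 against 78) but did not pass the expression limit. The Zic genes, the 4 most abundant of the list, were all lower but within the fold limit, between -0.70 and -0.25. These genes were named after their values were seen, apart from the 4 Zic genes.

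Both RA-DIFF libraries held abundant neural progenitor transcripts. The 10 genes of that list summed to 3886 CPM in the wild-type-labelled library and 3716 CPM in the Htt-null-labelled one, with 4 called lower, none higher and a median of -0.33. Its most abundant genes, Fabp7 (0.12), Nes (0.53), Cdh2 (0.42) and Sox2 (-0.01), stayed within the fold limit. The neuron list summed to 3033 and 1435 CPM, with 9 of 12 genes called lower in the Htt-null-labelled library and a median of -1.25. In contrast, 15 of the 16 fibroblast and mesenchyme genes were called higher, with sums of 998 and 3512 CPM and a median of 1.71, and the somite and sclerotome list had 5 of 8 called higher and 1 lower, Uncx (893 and 70 reads), with sums of 43.6 and 76.8 CPM. The neural crest list had 2 of 7 called higher and 4 lower (522 and 333 CPM in all). Its most abundant genes were Ednrb (-0.80), Sox9 (0.16), Tfap2b (-2.97) and Foxd3 (-0.86). Its defining gene Sox10, with 30 and 62 reads, did not pass the expression limit. No gene of these 5 lists was at 0 in RA-DIFF except Nkx3-2, in the wild-type-labelled library. Of the 8 pluripotency genes, 7 were called lower in the Htt-null-labelled library and Klf4 was not called (0.33). Together the 8 held 53.0 CPM in the wild-type-labelled library and 14.7 CPM in the other, where the ESC libraries held 4074 CPM in wild type and 3956 CPM in Htt-null. The part of these differences in the ratios of the dorsoventral factors was not tested. Beside the counts of these lists, 11.7% of all genes tested were called higher in the Htt-null-labelled RA-DIFF library and 8.99% lower.

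**Figure D3:**
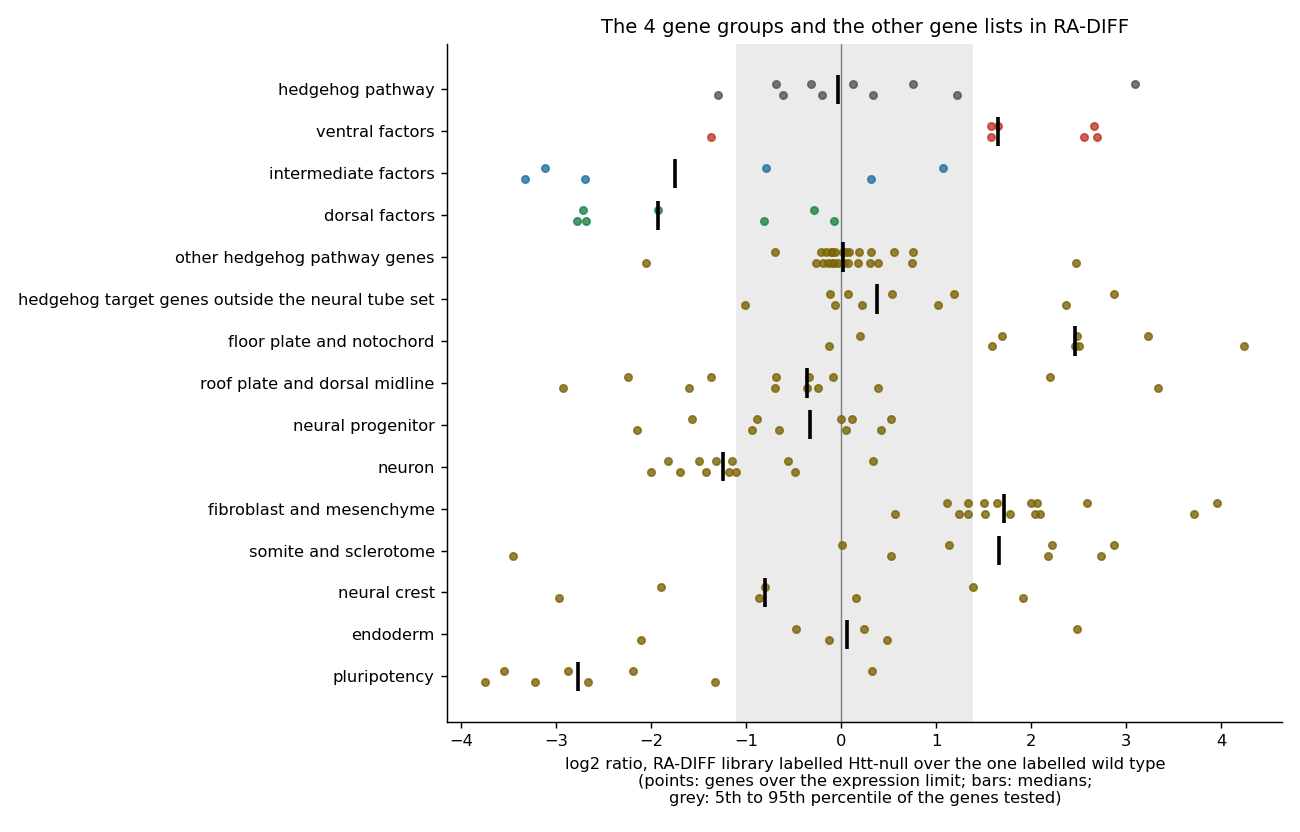
Log2 ratio of the Htt-null-labelled RA-DIFF library over the wild-type-labelled one for the genes over the expression limit in the 4 groups described here and in 11 other lists (points), with the median of each list as a black bar and the 5th to 95th percentile of the genes tested in grey. The ventral factors, the floor plate list and the mesenchyme list have medians of 1.65, 2.47 and 1.71, the intermediate and dorsal factors have medians of -1.75 and -1.93, and the neural progenitor list lies at -0.33.

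The change from ESC to RA-DIFF was then examined within each label. In cells labelled wild type, 24 of the 30 genes were called higher in RA-DIFF (80.0%) and 2 lower (6.67%), against 33.9% and 26.1% of the genes tested, with a median log2 ratio of 3.70. In cells labelled Htt-null, 22 were called higher (73.3%) and 2 lower (6.67%), against 34.3% and 24.8%, with a median of 2.51. Over all genes tested the medians were 0.12 and 0.17. As deposited, the genes called lower were Nkx2-9 and Dbx2 in both. With the RA-DIFF labels exchanged, so that each ESC library is set against the other RA-DIFF library, the medians became 2.61 and 3.73, 24 genes were called higher in each line, and Hhip joined Nkx2-9 and Dbx2 among those called lower in Htt-null.

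Several genes came from near or at 0 in ESC, and for those the increase, by the deposited labels, is a lower bound against 3 counts. Dbx1 was at least 3619-fold higher in RA-DIFF in cells labelled wild type and at least 271-fold in cells labelled Htt-null. Olig2 was at least 2308-fold higher in cells labelled Htt-null, Shh at least 342-fold in cells labelled wild type, and Pax3 at least 190-fold in cells labelled Htt-null. Of the pathway, Gas1, Gli3, Boc and Smo were called higher in both labels, with log2 ratios of 3.34 and 3.72, 3.69 and 3.22, 3.21 and 2.86, and 1.96 and 2.16 (labelled wild type, then Htt-null). Cdon, Hhip and Gli2 were called in neither, as deposited. Ptch1 was called higher in cells labelled Htt-null (0.93) and not in cells labelled wild type (-0.04), and Gli1 was called higher in cells labelled wild type (1.43) and not in cells labelled Htt-null (0.57). These calls depended on the labels. With the RA-DIFF labels exchanged, Ptch1 was called in neither line (0.71 in wild type, 0.18 in Htt-null), Gli1 was called higher in Htt-null (1.25) and not in wild type (0.74), and Hhip was called higher in wild type (0.91) and lower in Htt-null (-0.82). The difference between the labels was not tested.

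By the deposited labels, Irx3 was called higher in RA-DIFF in cells labelled wild type (4.29) and not in cells labelled Htt-null (0.08), and Msx2 went the same way (3.70 and 0.70). With the RA-DIFF labels exchanged, both genes were called higher in both lines, Irx3 with 1.17 in wild type and 3.19 in Htt-null and Msx2 with 1.77 and 2.63. For Foxa2, Nkx2-2, Olig1 and Nkx6-1 the larger increase was in cells labelled Htt-null, with log2 ratios of 5.22, 7.02, 7.41 and 7.22 against 2.47, 4.16, 4.20 and 4.45 in cells labelled wild type. After the exchange the larger increase of these 4 genes was in wild type, with 5.15, 6.82, 6.76 and 6.11 against 2.54, 4.36, 4.85 and 5.57. The genotype comparisons and these share libraries, so neither is support for the other.

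**Figure D4:**
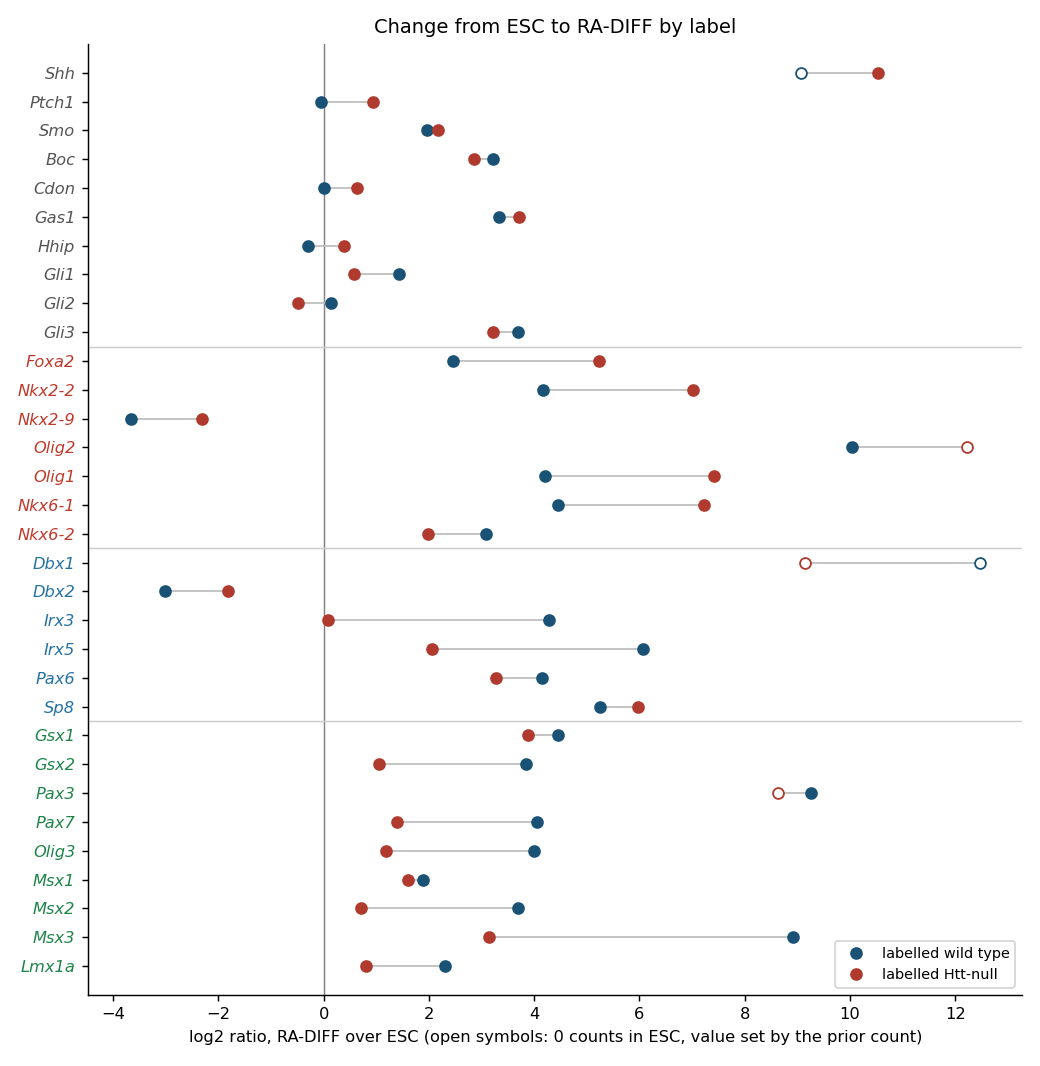
Log2 ratio of RA-DIFF over ESC for the 32 genes in cells labelled wild type (blue) and labelled Htt-null (red), with open symbols where ESC had 0 counts and the value is set by the prior count (gene names are coloured grey for the pathway, red for ventral, blue for intermediate and green for dorsal factors). Nkx2-9 and Dbx2 lie to the left of 0, and Irx3 is at 4.29 in cells labelled wild type and 0.08 in cells labelled Htt-null.

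In ESC most of the factors were barely transcribed, and the genes that differed between genotypes went both ways. The ventral factors summed to 5.20 CPM in wild-type and 4.83 CPM in Htt-null ESC, the intermediate to 12.6 and 14.6 CPM and the dorsal to 4.56 and 6.98 CPM, whereas the pathway genes summed to 577 and 534 CPM. Of the 30 genes, 5 were called higher in Htt-null ESC (16.7%) and 3 lower (10%), against 5.14% and 3.47% of the genes tested, with a median of -0.03. Among the 8, only Boc (461 reads in Htt-null, 1176 in wild type, log2 ratio -0.94) and Irx3 (203 and 125 reads, 1.10) had 100 reads or more in the higher library. The others were Irx5 with 76 and 40 reads, Msx2 with 30 and 18, Msx3 with 16 and 1, Nkx6-1 with 2 and 8, Pax3 with 0 and 6 and Shh with 3 and 0. For Nkx6-1, Pax3 and Shh the counting interval of the ratio included 0. Ptch1, Smo, Cdon, Gas1, Hhip, Gli1, Gli2 and Gli3 were not called, with log2 ratios between -0.58 and 0.52.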

How the data were processed

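RNA-seq of 4 conditions, with 1 library each, was used. The small RNA table was not used. The authors aligned 50 bp paired-end reads of strand-specific poly-A libraries to GRCm38.p4 with TopHat 2.0.14, guided by GENCODE M6, counted them on genes with HTSeq 0.6.1 (mode intersection-nonempty), and deposited raw counts per gene. The methods state that options not named, which include strand, were at their defaults. Whether this held for the strand option was not tested.

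TMM factors over the 4 libraries and log2 ratios (prior count of 2) were computed with edgeR 4.0.16 in R 4.3.3. Intervals and plots used scipy 1.17.1 and matplotlib 3.10.9 under Python 3.11.15. A gene was called beyond a log2 ratio of 0.75 with a mean log2 CPM above 0, the limits of the study. The study's exact test rests on an assumed dispersion and was run only as an alternative call rule. With 1 library per condition no quasi-likelihood test was fitted and no p-value is given. Ratio intervals are 95% exact binomial intervals. They hold counting error alone, and PCR copies make them too narrow. Per-kb levels used the union of exons in GENCODE M21 on GRCm38. The code of the call rule was run on simulated counts with counting error alone, with 200 genes changed by a known fold. That run held no spread between cultures, so it cannot check the calls made here. All 32 genes are named. Other lists name their 4 most abundant genes, with exceptions stated. Some genes that this rule names are left out of the text. The genes, lists and limits were chosen with earlier results of these data known.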

Additional observations from a re-analysis of the deposited data

Results flagged for a closer look

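Of the 30 genes over the expression limit, 5 (16.7%) passed the fold limit in opposite directions in ESC and RA-DIFF, by the deposited labels, beside 373 of all 15492 genes tested (2.41%). Gsx2, under that limit, did so too (1.97 in ESC with 13 and 3 reads, -0.83 in RA-DIFF). On the log2 scale, the genotype ratio (Htt-null to wild type) in RA-DIFF minus that in ESC was 2.77 for Nkx6-1, -4.21 for Irx3, -3.99 for Irx5, -3.00 for Msx2 and -5.77 for Msx3. The difference between the stages was not tested, since each stage has 1 library per genotype. In ESC the 5 genes had few reads, at most 203 (Irx3), and Nkx6-1 had 2 and 8. With the RA-DIFF labels exchanged, all 5 would have the same direction at both stages. The other 3 genes called in ESC, Boc, Pax3 and Shh, had the same direction at both stages by the deposited labels and would then have opposite directions, beside 1.59% of all genes tested.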

How the results depend on the processing

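Directions and counts were recomputed under other scalings, limits and call rules, with 1 library per condition throughout, so no library could be left out of a comparison and no spread between cultures entered. No paired analysis was possible because each condition has a single library. In RA-DIFF, between genotypes, the numbers of genes called stayed within 1.5 times under every alternative, and exchanging the RA-DIFF labels turned the median from -0.24 to 0.24 by construction. The exchange moved the medians of the change from ESC to 2.61 in cells labelled wild type and to 3.73 in cells labelled Htt-null. In the latter the median was 2.11 without an expression limit and 3.00 over genes with 100 counts or more. The ESC comparison depended most on the limits. Where 100 counts were required in the higher library, 1 gene was called higher and 1 lower. With the exact test at a dispersion of 0.1, 1 was called higher and 0 lower, and at 0.01 1 was called lower. The ESC median of -0.03 became 0.0101 without an expression limit and 0.0203 with the limit of 100 counts. Of the 128 log2 ratios of single genes, 19 moved beyond their counting interval with library size in place of TMM and 4 with DESeq2 size factors, and no called ratio changed sign. The call of Ptch1 in RA-DIFF was lost with library size (0.70). Library size also left 21 genes called higher from ESC in cells labelled Htt-null, in place of 22. These scalings shifted the median of all genes tested by between -0.07 and 0.06. Counts of the other lists under other scalings, and the changes of single genes from ESC with exchanged labels, were added after seeing the data.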
